A study of Mus musculus with 4 samples.

Results

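DMRT genes encode transcription factors that bind DNA through a zinc-binding DM domain, named after the sex-determining genes doublesex of Drosophila and mab-3 of Caenorhabditis elegans. In mice Dmrt1 keeps Sertoli cells of the testis male and acts in germ cells, Dmrtb1 acts in spermatogonia, Dmrt2 in somites, Dmrt3 in the embryonic forebrain and in spinal interneurons that coordinate gait, and Dmrta1 and Dmrta2 in the forebrain. The 6 genes described here are Dmrt1, Dmrt2, Dmrt3, Dmrta1, Dmrta2 and Dmrtb1, 6 of 24428 gene rows, taken by symbol. The family was chosen by the measured tamoxifen to ethanol difference of Dmrt3, which was among the largest increases, so the values of Dmrt3 are a description and carry no p-value. Of 11 rows whose symbol starts with Dmrt, the other 5 (Dmrtc1a, Dmrtc1b, Dmrtc1c1, Dmrtc1c2 and Dmrtc2) are not among these 6.

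The libraries were poly(A) RNA-seq of embryonic stem cells from 129SvEv mice, at passage 15-20, with floxed copies of Smarca4 and a tamoxifen-activated Cre recombinase. The product of Smarca4, BRG1, is the ATPase that powers BAF complexes, which move nucleosomes. The culture medium held serum and LIF, a cytokine that blocks differentiation. Cells received 0.8 uM 4-hydroxytamoxifen (n = 2) or ethanol (n = 2) for 48 h and were collected 72 h after the start. All 4 libraries carry the same genotype label, cells without loxP sites given tamoxifen were not analysed here, and drug, active Cre and deletion cannot be told apart.

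Reads in genes numbered 13458463 and 17191445 in the tamoxifen libraries and 16130823 and 27086142 in the ethanol libraries. Smarca4 averaged 68.6 ± 0.152 CPM with tamoxifen and 369 ± 56.9 CPM with ethanol (counts per library size, CPM, after TMM normalisation; SD, n = 2 each), in the direction of the labels. Its reads were summed over the gene, so they can come from exons that Cre leaves in place. The 8 stem cell markers summed to 5343 and 5068 CPM with tamoxifen and 5169 and 5004 CPM with ethanol. These sums hide opposite changes of single markers. Of the 8, 1 was called higher and 1 lower (edgeR, adjusted p under 0.05), against 21.5% and 22.9% of all tested genes. With the GC correction described below, 3 were higher and 2 lower, against 10.8% and 10.3%. Separate cultures are not stated for the libraries of a group. The p-values therefore reflect the spread between these samples alone, which may be technical.

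Dmrt1, Dmrt3 and Dmrt2 lie side by side in that order on chromosome 19, on the plus strand. Dmrta1, Dmrta2 and Dmrtb1 lie apart from each other on chromosome 4. RefSeq start-site windows of GRCm38.p6, from 250 bases before to 50 after the start, matched 5 of the 6 genes by symbol. Dmrt1 had no window, so no sequence of its start was examined. Dmrtb1 had 2 windows. Below are those of Dmrt3, Dmrta2 and Dmrtb1 (for Dmrtb1 the upstream of its 2 windows), the members with a printed window and enough reads to test, since their transcript levels are compared next. Capitals mark each CpG, and the windows are chr19:25610287-25610586 (plus strand), chr4:109977775-109978074 (plus strand) and chr4:107684181-107684480 (minus strand).
Dmrt3: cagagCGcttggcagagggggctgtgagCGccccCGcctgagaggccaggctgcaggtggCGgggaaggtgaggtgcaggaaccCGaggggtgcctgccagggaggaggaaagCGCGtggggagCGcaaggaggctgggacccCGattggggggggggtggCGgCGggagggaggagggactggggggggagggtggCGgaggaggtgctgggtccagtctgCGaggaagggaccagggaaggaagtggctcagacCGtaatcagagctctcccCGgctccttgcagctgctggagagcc
Dmrta2: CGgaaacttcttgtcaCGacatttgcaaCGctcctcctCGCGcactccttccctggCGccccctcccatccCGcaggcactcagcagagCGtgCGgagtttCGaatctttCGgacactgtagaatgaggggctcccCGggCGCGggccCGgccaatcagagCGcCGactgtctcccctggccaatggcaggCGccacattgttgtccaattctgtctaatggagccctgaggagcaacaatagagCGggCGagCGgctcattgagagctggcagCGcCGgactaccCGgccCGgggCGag
Dmrtb1: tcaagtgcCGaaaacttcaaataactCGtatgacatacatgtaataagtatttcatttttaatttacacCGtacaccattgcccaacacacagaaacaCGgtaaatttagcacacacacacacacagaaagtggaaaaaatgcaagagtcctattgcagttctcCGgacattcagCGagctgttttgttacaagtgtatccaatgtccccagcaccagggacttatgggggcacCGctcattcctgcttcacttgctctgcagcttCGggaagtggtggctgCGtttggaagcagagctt

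The windows of Dmrt3 and Dmrta2 were 70.7 and 63.7% G and C and held 15 and 26 CpGs. The printed one of Dmrtb1 was 44.7% G and C with 9 CpGs, and its other window, chr4:107683540-107683839, was 74.7% G and C with 28 CpGs, against medians of 52.7% and 7 over 32851 windows. The DMRT recognition core ACATTGT, searched on both strands (reverse complement ACAATGT), was found in 1 of the 6 windows of these genes, that of Dmrta2, and in 2.96% of all windows. It stood 55 bases before the Dmrta2 start, at chr4:109977960-109977986 with its flanks and the core in capitals.
Dmrta2 core: ggcaggcgccACATTGTtgtccaattc

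The octamer ATTTGCAT that POU factors bind (reverse complement ATGCAAAT) was in none of the 6 windows and in 1.74% of all windows. A match is a description of letters and shows no binding, and a lack of match says only that these letters are not in the window.

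Dmrt1 was by far the best measured of the 6 genes. It had 1525 and 1560 reads in tamoxifen replicates 1 and 2 and 762 and 1152 reads in ethanol replicates 1 and 2. Scaled to library size this was 108 and 87.4 CPM with tamoxifen and 49.6 and 44.2 CPM with ethanol. Both tamoxifen libraries stood above both ethanol libraries. The group averages were 97.7 ± 14.5 CPM with tamoxifen and 46.9 ± 3.82 CPM with ethanol (SD, n = 2 each), 2.08-fold higher with tamoxifen. Dmrt1 rose by 1.06 ± 0.16 on the log2 scale (SE; edgeR quasi-likelihood test, adjusted p = 0.000403 over 14479 tested genes). In these bulk samples a larger number of cells with the transcript and more transcript per cell cannot be told apart.

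The same test called 44.5% of all tested genes, 21.5% higher and 22.9% lower with tamoxifen. Of those called, 48.4% were higher, against 61.8% where libraries were scaled by total counts, which moved the all-gene median log2 fold change to 0.12. Fold changes rose with the GC content of transcripts, so values are also given with a correction for each library's trend on transcript GC content. With that correction 10.8% of genes were called higher and 10.3% lower. Among 1556 genes within 1 percentage point of the 52.9% GC of the Dmrt1 transcript the median log2 fold change was 0.20. The corrected log2 fold change of Dmrt1 was 0.88 ± 0.15 (SE; edgeR, adjusted p = 0.00156).

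Dmrt3, whose increase led to the choice of the family, had 176 and 181 reads with tamoxifen and 57 and 50 with ethanol. That was 12.5 and 10.1 CPM with tamoxifen and 3.71 and 1.92 CPM with ethanol, and the groups did not overlap. The ethanol libraries lay apart from each other, and their 95% counting intervals were 2.81 to 4.81 CPM in replicate 1 and 1.43 to 2.53 CPM in replicate 2 (exact Poisson, covering counting error only, as do all such intervals here). The log2 fold change was 2.06 ± 0.28 (SE) and ranked 37 of 14479 tested genes. It was 1.47 ± 0.25 with GC correction, while 686 genes within 1 point of its 59.6% GC had a median of 0.64. Taken as reads per length, Dmrt3 stood at 12.2 and 12.3% of the level of its neighbour Dmrt1 in the tamoxifen libraries and at 7.94 and 4.60% in the ethanol libraries.

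Dmrt2, the third gene of the cluster and a factor of the somites, was barely detected. It had 5 and 4 reads with tamoxifen and 1 and 7 with ethanol, or 0.354 and 0.224 CPM with tamoxifen and 0.0652 and 0.269 CPM with ethanol. The groups overlapped. The pooled level with tamoxifen was 1.46 times that with ethanol, with a counting interval of 0.499 to 4.34 (95%, exact binomial on the summed counts), so a difference was not detectable at this depth. The antisense transcript 2610016A17Rik, which lies between Dmrt3 and Dmrt2, had 0 reads in all 4 libraries and was named after its values were seen.

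**Figure D1:**
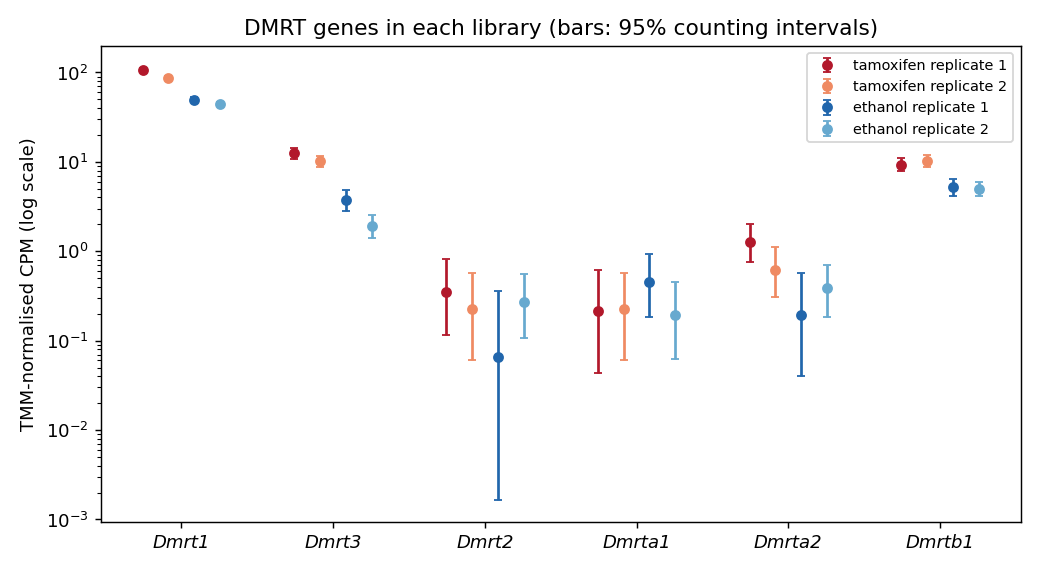
TMM-normalised CPM of the 6 DMRT genes in each library on a log axis, with tamoxifen libraries in red and orange and ethanol libraries in blues; bars are 95% exact Poisson counting intervals. Dmrt1 lies at 87.4 to 108 CPM with tamoxifen and 44.2 to 49.6 CPM with ethanol, Dmrt3 and Dmrtb1 lie near 10 CPM with tamoxifen, and Dmrt2, Dmrta1 and Dmrta2 lie near or below 1 CPM.

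Dmrtb1, which acts in spermatogonia before meiosis, had 132 and 183 reads with tamoxifen and 80 and 129 with ethanol. This corresponded to 9.34 and 10.3 CPM with tamoxifen and 5.21 and 4.95 CPM with ethanol. The replicates of each group lay close together and the groups did not overlap. The averages were 9.80 ± 0.648 CPM with tamoxifen and 5.08 ± 0.182 CPM with ethanol (SD, n = 2 each), 1.93-fold higher with tamoxifen, and Dmrtb1 rose by 0.95 ± 0.19 log2 (SE; edgeR quasi-likelihood test, adjusted p = 0.00206). With GC correction the call ended, at 0.37 ± 0.19 (edgeR, adjusted p = 0.178). The 761 genes within 1 point of its 59.3% GC had a median log2 fold change of 0.63, with a middle 50% from 0.29 to 0.90.

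Dmrta2, a regulator of the cortical primordium, had 18 and 11 reads with tamoxifen and 3 and 10 with ethanol, hence 1.27 and 0.616 CPM with tamoxifen and 0.195 and 0.384 CPM with ethanol. Tamoxifen replicate 2 and ethanol replicate 2 differed by 1 read, and their counting intervals overlapped (0.308 to 1.103 CPM with tamoxifen, 0.184 to 0.706 CPM with ethanol). The fit gave it 1.54 ± 0.55 log2 (SE; edgeR, adjusted p = 0.0364). Only the tamoxifen libraries, 2 of 2 against 0 of 2 ethanol libraries, were past the low-count filter's minimum, so Dmrta2 was tested only because it was high there, and that p is no support for a difference. In the fit without the filter it was at 1.53 (edgeR, adjusted p = 0.0196). The call ended without tamoxifen replicate 1 (0.98), without ethanol replicate 1 (1.24), with DESeq2 (1.64) and with GC correction (0.68 ± 0.57; edgeR, adjusted p = 0.422). Its transcript has 65.4% G and C, and only 48 tested genes lay within 1 point of that, with a median of 0.85. RefSeq also annotates an antisense gene, Dmrta2os, over its start, while the GENCODE annotation used here lists no gene overlapping Dmrta2. With no strand setting stated for the counts, reads of that transcript where it overlaps Dmrta2 cannot be told apart.

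Dmrta1, its forebrain paralog, had 3 and 4 reads with tamoxifen and 7 and 5 with ethanol, or 0.212 and 0.224 CPM with tamoxifen and 0.456 and 0.192 CPM with ethanol. The groups overlapped, and the ratio of pooled levels was 0.755 (counting interval 0.252 to 2.08). Dmrt2 and Dmrta1 failed the filter on low counts. In a fit without that filter their log2 fold changes were 0.54 ± 0.88 and -0.44 ± 0.84 (SE; edgeR, adjusted p = 0.676 and 0.722).

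All 4 tested members, Dmrt3 included, had both tamoxifen libraries above both ethanol libraries, as had 37.0% of all tested genes. As the contrast chose the family, nothing is read from that count. Outside the 6, Dmrtc2, another family member with a role in male germ cells, had 5.59 and 4.09 CPM with tamoxifen and 2.54 and 1.92 CPM with ethanol. It rose by 1.13 ± 0.27 log2 (SE; edgeR, adjusted p = 0.00506). With GC correction it was at 0.75 and no longer called (edgeR, adjusted p = 0.0546), and it was named after its values were seen. The X-linked Dmrtc1 copies had 0 to 4 reads in each library, and reads of such close copies may have been split or dropped.

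**Figure D2:**
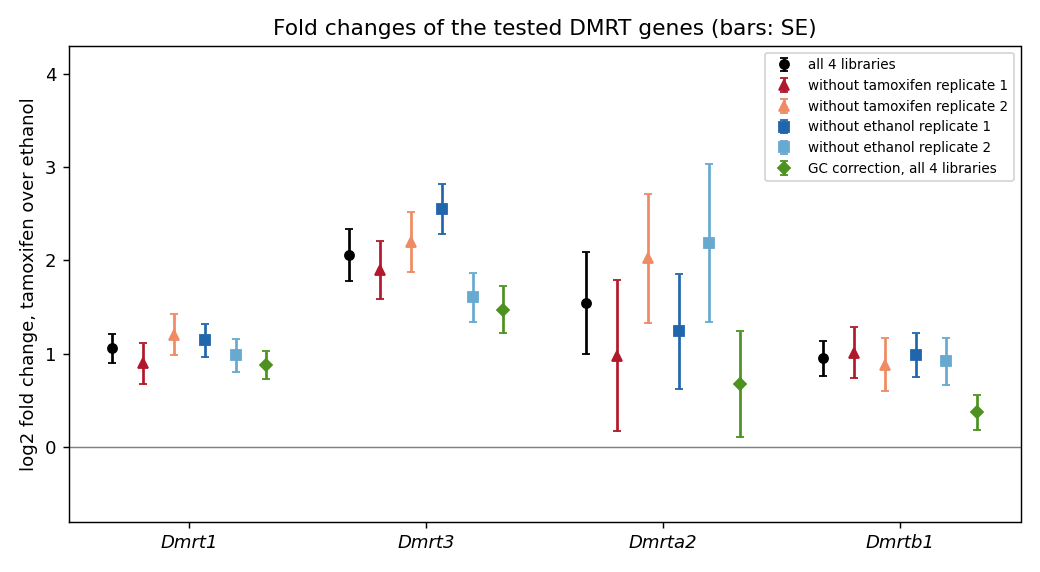
Log2 fold change of tamoxifen over ethanol for the 4 DMRT genes with enough reads to test, with all 4 libraries, without each library in turn and with GC correction; bars are SE. Dmrt1 stays between 0.88 and 1.20, Dmrt3 runs from 1.47 to 2.55, and Dmrtb1 falls to 0.37 and Dmrta2 to 0.68 with GC correction.

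Levels can be set side by side only per length, here as CPM per kilobase of annotated exon. With tamoxifen Dmrt1 stood at 41.6 and 33.7, Dmrtb1 at 4.48 and 4.92, Dmrt3 at 5.09 and 4.15, Dmrta2 at 0.436 and 0.211, Dmrt2 at 0.151 and 0.0959 and Dmrta1 at 0.0506 and 0.0534 CPM per kilobase. Dmrtb1 and Dmrt3 overlapped in that order, and the library values of the other neighbours did not. Counting error was left out of this order. Its low end rests on 18 and 11 reads of Dmrta2, 5 and 4 of Dmrt2 and 3 and 4 of Dmrta1. No order among these 3 genes, and no change of it between treatments, is read from such counts. With ethanol Dmrt1 stood at 19.1 and 17.1, Dmrtb1 at 2.502 and 2.378 and Dmrt3 at 1.52 and 0.785. Here Dmrtb1 lay above Dmrt3 in both libraries. Dmrta2 (0.0669 and 0.131), Dmrta1 (0.109 and 0.0458) and Dmrt2 (0.0279 and 0.115) overlapped each other with ethanol.

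Dmrt1 made up most of the family's signal under both treatments. Summed over the 6 genes, the level was 51.8 and 43.1 CPM per kilobase with tamoxifen and 23.4 and 20.5 with ethanol. Dmrt1 held 80.3 and 78.1% of that sum with tamoxifen and 81.9 and 83.2% with ethanol. Dmrt3 held 9.83 and 9.62% with tamoxifen and 6.50 and 3.83% with ethanol.

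The genes next to the DMRT genes moved in both directions. Taking the 5 nearest rows on each side of the cluster and of each single gene, 24 of 40 neighbours had enough reads to test, 4 of which rose and 8 fell (edgeR quasi-likelihood test, adjusted p under 0.05); their median log2 fold change was -0.26, against -0.01 over all tested genes. With GC correction 2 were higher and 5 lower. Of all tested genes 21.5% were called higher and 22.9% lower (10.8 and 10.3% with GC correction). Next to Dmrt1, Kank1, a regulator of the actin cytoskeleton, had a log2 fold change of -0.36 ± 0.17 (SE, edgeR, adjusted p = 0.0992). Kank1 was called lower with GC correction (-0.57), without ethanol replicate 1 (-0.43) and with the replicate number as a block (-0.36). On the far side of Dmrt2 lies Smarca2, which encodes BRM, the alternative ATPase to BRG1. It had 0.45 ± 0.17 (SE; edgeR, adjusted p = 0.0499), a call lost on omitting either tamoxifen replicate 1 (0.44), tamoxifen replicate 2 (0.47) or ethanol replicate 2 (0.26), with DESeq2 (0.45) and with GC correction (0.40). Dock8, beyond Kank1, was at 0.39 ± 0.40 and was not called. Vldlr, a lipoprotein receptor gene beyond Smarca2, fell by 0.92 ± 0.18 (adjusted p = 0.00177; -0.51 and not called with GC correction), and Cbwd1 fell by 0.79 ± 0.16 (adjusted p = 0.00203; -0.14 and not called with GC correction).

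Around Dmrta1 on chromosome 4, the cell cycle inhibitor genes Cdkn2a (1.01 ± 0.18 log2, SE) and Cdkn2b (0.96 ± 0.20) rose, and both calls ended with GC correction (0.37 and 0.57). Mtap, a methionine salvage enzyme gene, fell by 0.65 ± 0.16 (not called without tamoxifen replicate 2, at -0.56, or with GC correction, at -0.38). The RNA-binding protein gene Elavl2 fell by 1.08 ± 0.19 (-0.32 and not called with GC correction). Its paralog Elavl4, next to Dmrta2, rose by 0.73 ± 0.19, and by 1.46 with GC correction, and was not called without tamoxifen replicate 1 (0.65). On the other side of Dmrta2, Faf1 fell by 0.61 ± 0.15 (not called without tamoxifen replicate 1, at -0.51, or with GC correction, at -0.42).

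Beside Dmrtb1, the reelin receptor gene Lrp8 fell by 1.28 ± 0.16 (SE; adjusted p = 0.000177; -1.101 with GC correction), and Hspb11 fell by 1.04 ± 0.20 (-0.71 with GC correction). Glis1, on the other side of Dmrtb1, had 0.98 ± 0.43 and was not called (edgeR, adjusted p = 0.0807). Like Dmrta2, Glis1 passed the low-count filter through the tamoxifen libraries alone, and it was at 0.22 with GC correction. The remaining gene called among the neighbours of all loci, Spata6, lies near Dmrta2 and fell by 0.44 ± 0.16. Spata6 lost the call on omitting tamoxifen replicate 1 (-0.48), tamoxifen replicate 2 (-0.40) or ethanol replicate 1 (-0.42). The same held with DESeq2 (-0.44), with GC correction (-0.13), with upper-quartile factors (-0.38) and with total counts (-0.32).

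**Figure D3:**
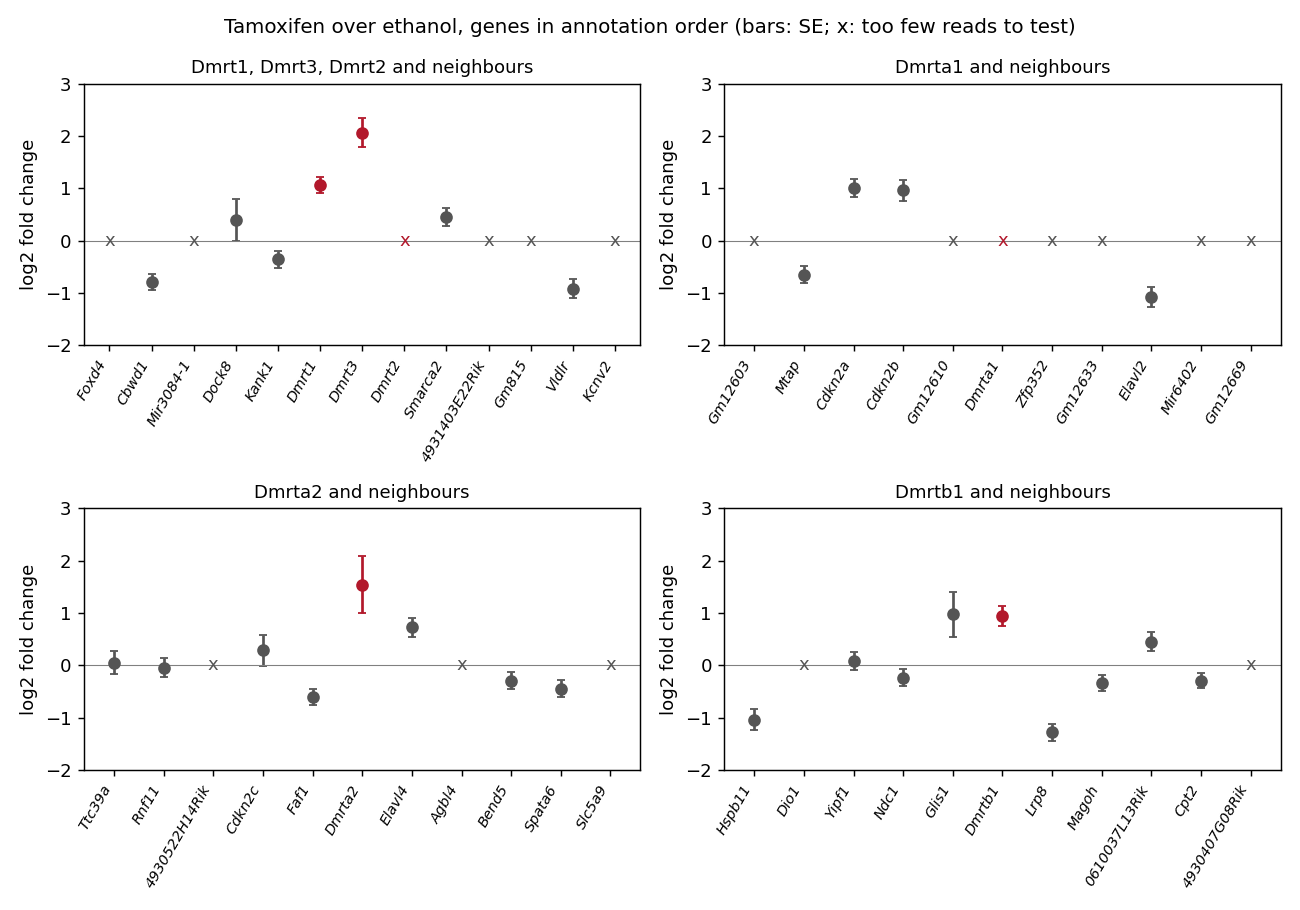
Log2 fold change of tamoxifen over ethanol for DMRT genes (red) and the 5 nearest genes with a row on each side (grey), in annotation order at 4 loci; bars are SE and an x marks genes with too few reads to test. Dmrt1 (1.06) and Dmrt3 (2.06) stand above Kank1 (-0.36) and Smarca2 (0.45). Dmrtb1 (0.95) stands above Lrp8 (-1.28) on one side and near Glis1 (0.98) on the other.

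The genes whose levels over the 4 libraries were most like those of Dmrt3 were sought among 2778 genes of like abundance, by the distance between log2 CPM values centred on each gene's mean. With 4 libraries in 2 groups this mostly ranks genes by the size of their increase. The nearest 5 were Cer1, a secreted Nodal antagonist (distance 0.30), the T-box factor gene Tbx4 (0.31), Mir124a-1hg (0.42), a host transcript of the neuronal miR-124, Cpz (0.46), a secreted carboxypeptidase gene, and the LIM homeobox factor gene Lhx1 (0.49). Cer1 had 7.71 and 6.95 CPM with tamoxifen and 2.15 and 1.46 CPM with ethanol. Dmrt1, too abundant for that set of 2778 genes, was farther from Dmrt3, at 1.11. Counted over all 14479 tested genes instead of that set, 570 were nearer.

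**Figure D4:**
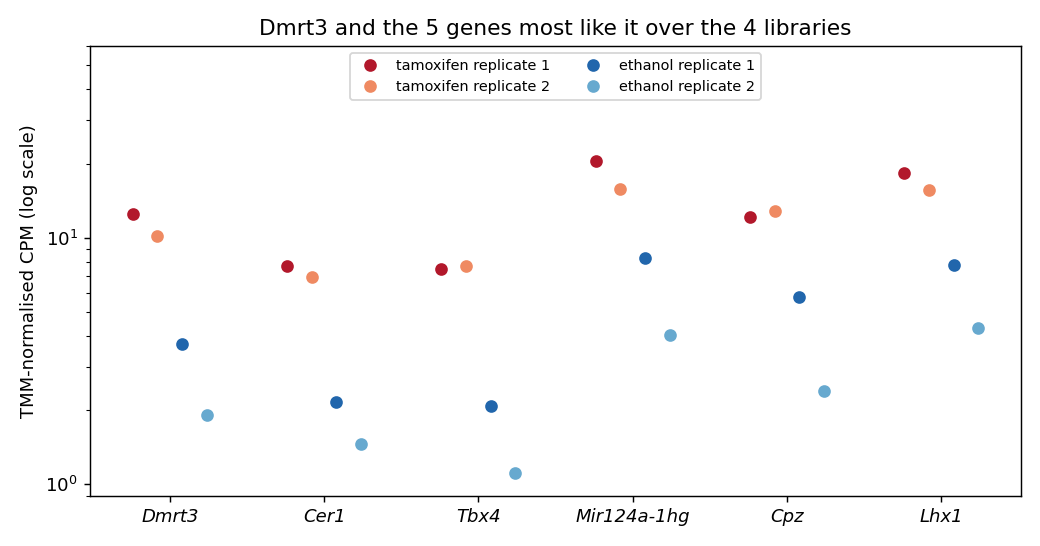
TMM-normalised CPM in each library, on a log axis, of Dmrt3 and the 5 genes most like it; tamoxifen libraries are red and orange, ethanol libraries blue. The genes were picked for this likeness, so the shared order of the points, such as 7.71 and 6.95 CPM with tamoxifen over 2.15 and 1.46 CPM with ethanol for Cer1, follows from the choice.

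Genes that pattern the forebrain, where Dmrt3, Dmrta1 and Dmrta2 act, were mostly low. Of 28 listed, 14 were tested, 4 rose and 0 fell (edgeR quasi-likelihood test, adjusted p under 0.05; 4 and 0 with GC correction), with a median log2 fold change of 0.61. Over all tested genes 21.5% were higher and 22.9% lower (10.8 and 10.3% with GC correction) and the median was -0.01, which holds as the background for each list that follows. None was lower at an unadjusted p under 0.05 or by DESeq2 or limma voom (0 each). Pax6, a master factor of the cortex and eye, had 6.79 and 7.01 CPM with tamoxifen and 4.04 and 3.23 CPM with ethanol. It rose by 0.94 ± 0.22 log2 (SE; edgeR, adjusted p = 0.00447; 1.004 and called with GC correction). The signaling ligand gene Wnt5a rose by 0.95 ± 0.21 and the T-box factor gene Eomes by 0.74 ± 0.15. Dlx2, a factor of ventral forebrain neurons, rose by 1.45 ± 0.45, a call that ended without ethanol replicate 2 (0.85), without tamoxifen replicate 2 (1.07), with DESeq2 (1.38) and with GC correction (0.93). Emx2, which patterns the cortex together with the DMRT genes, had 0.77 ± 0.40 and was not called; it was named after its values were seen. Without ethanol replicate 1, 8 members were higher, and without ethanol replicate 2, 1 was lower.

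Genes of dorsal and intermediate spinal interneurons, among which Dmrt3 marks a class, moved both ways. Of 24 listed, 9 were tested, 4 rose and 2 fell (2 and 2 with GC correction), with a median of 0.66. Lhx1 rose by 1.53 ± 0.25 log2 (SE), Pax6 as given above, and Foxd3, a factor of early stem cells and neural crest, by 0.86 ± 0.19 (0.01 and not called with GC correction, and 0.69 and not called without tamoxifen replicate 2). The homeobox gene Nkx6-2 fell to 1.02 ± 0.142 CPM with tamoxifen, against 3.88 ± 0.222 CPM with ethanol (SD, n = 2 each), and Gad1, the enzyme that makes the transmitter GABA, fell by 1.69 ± 0.38 log2. Without ethanol replicate 1, 7 members were higher, and without tamoxifen replicate 2, 2 were.

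Of the genes of gonadal sex determination, the setting of Dmrt1, 22 of 26 were tested, 9 rose and 1 fell (5 and 1 with GC correction), with a median of 0.55. Sox9, which drives Sertoli cell fate, had 1.63 and 1.79 CPM with tamoxifen and 0.326 and 0.269 CPM with ethanol. The fit gave Sox9 2.53 ± 0.42 log2 (SE; edgeR, adjusted p = 0.000730). Like Dmrta2, it passed the low-count filter through the tamoxifen libraries alone, so that p is no support for a difference. The 9 genes counted as higher, and the 5 with GC correction, include Sox9. Amhr2, the receptor for anti-Mullerian hormone, rose by 1.05 ± 0.22 (0.49 and not called with GC correction). The nuclear receptor gene Nr0b1, which is also part of the stem cell network, fell by 2.22 ± 0.20. Without ethanol replicate 2, 2 members were lower, and without tamoxifen replicate 1, 6 were higher.

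Of 24 germ cell genes, the setting of Dmrt1 and Dmrtb1, 20 were tested, 0 rose and 4 fell (2 and 5 with GC correction), with a median of -0.15. The count that fell is near the 22.9% of all tested genes called lower. At an unadjusted p under 0.05, 2 were higher, and DESeq2 and limma voom called 0 higher. With total counts, which shift the median of all genes to 0.12, 2 were called higher. Kit, the stem cell factor receptor of germ cells, fell by 1.36 ± 0.15 log2 (SE; edgeR, adjusted p = 0.000108), and Sycp3, a protein of the meiotic chromosome axis, by 1.89 ± 0.20 (-0.89 with GC correction). Stra8, the trigger of meiosis that DMRT1 represses in spermatogonia, had 2.69 and 2.58 CPM with tamoxifen and 3.65 and 5.15 CPM with ethanol. It fell by 0.76 ± 0.26. The call was lost on leaving out ethanol replicate 2 (-0.47), tamoxifen replicate 1 (-0.79) or tamoxifen replicate 2 (-0.72), with DESeq2 (-0.76) and with total counts (-0.64). The receptor kinase gene Ret fell by 1.05 ± 0.33, a call that ended without ethanol replicate 2 (-0.995) or tamoxifen replicate 2 (-0.79) and with DESeq2 (-1.04). 1 member was higher without ethanol replicate 1 or without tamoxifen replicate 2, and 2 were lower without tamoxifen replicate 2.

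Genes of the somite and dermomyotome, the setting of Dmrt2, were tested in 12 of 25 cases, of which 1 rose and 2 fell (1 and 5 with GC correction), with a median of 0.06. Eya1, which encodes a transcriptional coactivator with phosphatase activity, fell to 1.38 ± 0.448 CPM with tamoxifen, against 6.01 ± 1.27 CPM with ethanol (SD, n = 2 each). The Notch ligand gene Dll1 fell by 0.90 ± 0.29 log2, a call lost without tamoxifen replicate 1 (-1.03) or tamoxifen replicate 2 (-0.76) and with DESeq2 (-0.90). Lfng, a modifier of Notch, had -0.85 ± 0.33 and was not called (edgeR, adjusted p = 0.0537). Lfng was called lower with GC correction (-1.40), without ethanol replicate 2 (-1.12), with no filter on low counts (-0.86) and with the replicate number as a block (-0.85). Without ethanol replicate 2, 6 members were lower and without tamoxifen replicate 2, 1 was; 2 were higher without ethanol replicate 1.

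Of 29 fibroblast markers, 27 were tested, of which 20 rose, 0 fell and 7 were not called (19 higher and 1 lower with GC correction), and none was at 0 in all libraries. At an unadjusted p under 0.05, and by DESeq2 and limma voom, 0 were lower; 1 was without tamoxifen replicate 1. Their summed level was 4672 and 4797 CPM with tamoxifen and 3522 and 3053 CPM with ethanol. The share of reads outside genes was 37.6 and 35.0% with tamoxifen and 51.7 and 40.8% with ethanol. The part of either in the DMRT values was not tested.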

How the data were processed

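Poly(A) RNA-seq was measured in 2 tamoxifen and 2 ethanol libraries of floxed Smarca4 mouse embryonic stem cells. The authors deposited whole-number read counts per gene symbol, with 5 closing summary lines that were kept out of library sizes and tests. CASAVA 1.8.2, Bowtie 1.1.1, HTSeq, DESeq2 and the build mm9 are named per the submitters' processing notes; neither their roles nor the annotation or strandedness is stated. Of 24428 genes, 14479 passed edgeR's filterByExpr. Treatments were compared with edgeR 4.0.16 in R 4.3.3 (TMM, robust quasi-likelihood test, group as the only term), with Benjamini-Hochberg adjustment over all tested genes and a threshold of 0.05. Each SE was taken as |log2 fold change| divided by √F. The fit was tested on simulated data.

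Alternatives were other scaling, other filters, DESeq2 1.42.0, limma voom (limma 3.58.1), the replicate number as a block, leaving out each library (a library left alone in its group takes its spread from the other group) and a GC correction (loess of each library on transcript GC content, span 0.5, as an offset). GC content, exon length and gene order came from GENCODE M21 on GRCm38, which differs from the build of the files; 23535 symbols matched directly, 531 by synonym and 362 not. Start-site windows came from RefSeq, GRCm38.p6. Named genes are Smarca4, the members, their neighbours, the 4 most significant tested genes per list and the 5 genes most like Dmrt3, chosen with a prior count of 2. 1 gene that this rule names is not reported here. The members and lists were chosen with earlier results of these data known. Within each group the 2 libraries differed beyond counting noise (chi-square over its degrees of freedom, 10.5 with tamoxifen and 37.0 with ethanol).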

Additional observations from a re-analysis of the deposited data

How the results depend on the processing

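Dmrt1 kept its direction and its call under all alternatives, with 0.90 to 1.20 log2 when a library was left out and 0.73 to 1.02 when that was combined with GC correction. Dmrt3 kept its direction; it was 1.60 to 2.55 without a library, 1.47 with GC correction, 1.48 with GC correction and the block, and 1.09 to 1.88 with GC correction without a library. Dmrtb1 lost its call with GC correction (0.37), with GC correction and the block (0.37) and with GC correction without any library (0.31 to 0.42), but not on leaving out a library alone (0.88 to 1.01). Dmrta2 lost it with DESeq2 (1.64), GC correction (0.68), and GC correction and the block (0.64); it was 0.98 to 2.19 without a library and 0.087 to 1.46 with GC correction besides. A filter of at least 1 CPM in 2 libraries gave no value for Dmrta2.

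Called genes numbered 3060 with GC correction (1564 higher, 1496 lower) and 3806 at an adjusted p under 0.01 (1765 and 2041), against 6441 (3119 and 3322). Leaving out a library gave 3888 to 7326 (1800 to 3598 higher, 2055 to 3728 lower), and with GC correction 949 to 3741 (465 to 1835 and 484 to 1909). Left-out ranges, first without and then with GC correction, were as follows. The forebrain list had 3 to 8 and 1 to 5 higher, and 0 to 1 lower in both. The spinal list had 2 to 7 and 1 to 3 higher, and 2 and 1 to 3 lower. The gonad list had 6 to 11 and 4 to 5 higher, and 1 to 2 and 1 to 3 lower. The germ cell list had 0 to 1 and 0 to 2 higher, and 2 to 6 and 1 to 6 lower. The somite list had 1 to 2 and 1 higher, and 1 to 6 and 2 to 6 lower. Fibroblast markers had 15 to 21 and 11 to 20 higher, and 0 to 1 and 0 to 2 lower. Neighbours had 3 to 4 and 1 to 3 higher, and 6 to 9 and 1 to 7 lower.

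With GC correction the counts that moved were 2 spinal genes higher, 5 gonad genes higher, 2 germ cell genes higher, 5 somite genes lower, 1 fibroblast marker lower, and 2 neighbours higher and 5 lower. With the block added they were 2 spinal higher, 4 gonad lower, 4 germ cell higher, 5 somite lower and 2 fibroblast markers lower. Germ cell genes called higher were 1 with upper-quartile factors and 2 with total counts, and those lower were 2 with DESeq2 and 2 at an adjusted p under 0.01. Somite genes lower were 4 with no filter, 1 with DESeq2 and 1 at the stricter threshold. Rnf11 turned to 0.46 with GC correction and the block and ranged from -0.24 to 0.65 over fits without a library. Foxd3 ranged from -0.14 to 0.999 over such fits, turning with GC correction without ethanol replicate 1 (-0.04) and tamoxifen replicate 2. The causes were not tested.

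Libraries of the same number deviated together only weakly (r = 0.234 across 14479 genes, which are not independent replicates), and 2 pairs do not show that the numbers pair the samples. With the replicate number as a block, the log2 fold changes were 1.05 for Dmrt1, 2.07 for Dmrt3, 1.49 for Dmrta2 and 0.95 for Dmrtb1, and 8087 genes were called. Kank1 (-0.36, and -0.57 with GC correction besides) and Lfng (-0.85, and -1.40) were called lower with the block. Of the neighbours of Dmrtb1, Magoh was also called lower with the block (-0.33), but with GC correction and no block it was at 0.21 and not called. 0610037L13Rik was called higher with the block (0.45, and 0.59 with GC correction besides). That call did not need the block. It was also made with GC correction alone (0.58), upper-quartile factors (0.51), total counts (0.58) and no filter on low counts (0.44). Depth limits Dmrt2, Dmrta1 and Dmrta2, with 1 to 18 reads per library; with 2 libraries a group, leaving out 1 changes the number of calls.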
